A study of Mus musculus with 3 samples.

Results

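Interferon-stimulated genes (ISGs) were followed through the peripheral blood mononuclear cells (PBMCs) of young, aged and glycyrrhizic acid-treated aged mice. A list of 51 mouse ISGs was matched to the gene table by symbol, and 49 of them were analysed among 32285 genes in all. The 2 others, Mx1 and Mx2, were not analysed here. Each sample was 1 droplet single-cell RNA library from female C57BL/6 mice: the young mice were 8 weeks old, the aged mice 16 months old, and the aged-GA mice 16 months old with glycyrrhizic acid, a triterpenoid glycoside of liquorice root, injected into the tail vein every other day for 1 month. The young mice were purchased and the aged mice were reared in the laboratory, so age and origin cannot be told apart. The labels list no treatment for the aged mice, while the study's methods give its control mice saline through the same vein. The study processed several mice per group, and the cells of a library are not assigned to mice, so the spread between mice cannot be seen. With 1 library per group no test across samples was possible, and all intervals are 95% intervals that cover counting error only.

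Type I interferons bind the receptor IFNAR, and interferon-gamma binds IFNGR. Both receptors act through Janus kinases that phosphorylate STAT proteins. A factor that holds STAT2 and IRF9 binds the interferon-stimulated response element (ISRE), and the gamma-activated site (GAS) is the element of the interferon-gamma response. The genes switched on this way code for sensors of viral RNA (Ddx58, which codes for RIG-I, and Ifih1, which codes for MDA5), proteins that hold viral RNA (the IFIT family), enzymes that start its decay (the OAS family), a ubiquitin-like protein (Isg15) with its conjugation partners, guanylate-binding and immunity-related GTPases, and the PYHIN family, some of whose members bind DNA.

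The promoters of several ISGs show the elements named above. RefSeq promoter windows of the assembly GRCm38.p6, which reach from 250 bases before to 50 bases after a start site, were found for 38 of the 49 genes. Those without a window were Oas2, Usp18, Rtp4, Zbp1, Ifi27l2a, Dhx58, Parp9, Parp14, Iigp1, Tor3a and Ifi204. The ISRE-like letters GAAANNGAAA, or TTTCNNTTTC on the other strand, lay in a window of 23 of the 38 genes (60.5%), against 3.99% of 27025 genes with a window. The GAS-like letters TTCNNNGAA, which read the same on both strands, lay in a window of 7 of the 38 (18.4%), against 9.55% of all genes. ISRE-like letters were found in 4 of 5 IFIT genes with a window, 3 of 5 OAS genes, 5 of 6 GTPase genes and 3 of 4 PYHIN genes. Such a match is a run of letters and not a measured binding site. The windows of 5 genes are printed because the values below turn on these genes, with ISRE-like and GAS-like letters in capitals. Isg15 (chr4:156200769-156201068, minus strand) holds 3 overlapping ISRE-like matches, the first of them beginning 78 bases before the start site. Rsad2 (chr12:26456403-26456702, minus strand) holds 1 ISRE-like match, 120 bases before the start. The window shown for Isg20 (chr7:78913174-78913473, plus strand) has no ISRE-like and 1 GAS-like match. Oas1a (chr5:120907476-120907775, minus strand) holds 2 overlapping ISRE-like matches from 20 bases before the start, and 1 GAS-like match. The window shown for Ifi203 (chr1:173942443-173942742, minus strand) holds 1 ISRE-like match, 35 bases before the start. Ifi203 has 2 windows, and only 1 of them holds ISRE-like letters.
Isg15: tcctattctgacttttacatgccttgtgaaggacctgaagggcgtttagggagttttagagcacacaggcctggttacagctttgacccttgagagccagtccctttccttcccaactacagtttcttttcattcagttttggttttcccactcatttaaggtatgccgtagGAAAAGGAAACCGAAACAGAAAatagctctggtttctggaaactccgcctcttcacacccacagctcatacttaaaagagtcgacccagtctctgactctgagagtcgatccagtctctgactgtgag
Rsad2: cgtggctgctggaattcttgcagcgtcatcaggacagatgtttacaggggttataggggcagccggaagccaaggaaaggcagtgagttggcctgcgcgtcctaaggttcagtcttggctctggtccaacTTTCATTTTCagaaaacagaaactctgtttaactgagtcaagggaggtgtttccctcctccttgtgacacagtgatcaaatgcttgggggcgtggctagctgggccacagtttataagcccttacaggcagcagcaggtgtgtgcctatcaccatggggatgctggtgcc
Isg20: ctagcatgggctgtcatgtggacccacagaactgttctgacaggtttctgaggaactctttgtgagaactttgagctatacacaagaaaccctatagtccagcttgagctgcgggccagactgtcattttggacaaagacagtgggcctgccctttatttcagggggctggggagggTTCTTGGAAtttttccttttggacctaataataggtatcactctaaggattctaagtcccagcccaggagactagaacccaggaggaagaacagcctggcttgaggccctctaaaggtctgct
Oas1a: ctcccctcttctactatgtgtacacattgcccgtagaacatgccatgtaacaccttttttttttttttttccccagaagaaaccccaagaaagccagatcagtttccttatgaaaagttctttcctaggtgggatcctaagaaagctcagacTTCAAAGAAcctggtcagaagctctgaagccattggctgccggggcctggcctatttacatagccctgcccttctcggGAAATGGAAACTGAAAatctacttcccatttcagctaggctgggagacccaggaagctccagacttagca
Ifi203: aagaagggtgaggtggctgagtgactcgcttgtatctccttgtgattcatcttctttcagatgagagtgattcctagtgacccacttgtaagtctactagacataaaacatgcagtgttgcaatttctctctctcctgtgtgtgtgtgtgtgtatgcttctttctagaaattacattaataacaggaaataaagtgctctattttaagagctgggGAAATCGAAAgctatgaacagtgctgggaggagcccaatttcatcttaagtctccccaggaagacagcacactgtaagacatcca

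The libraries held between 10842 and 17332 barcodes, of which 8851 young, 10238 aged and 12648 aged-GA cells were kept, with median depths of 4671, 3810.5 and 4752 unique molecular identifiers (UMIs, 1 per captured transcript). Between 50 and 62 of all barcodes were shared by any pair of libraries. Cells were assigned to types by their marker genes, and a type is called "B-like" and so on because no annotation was used. B-like cells numbered 2256 in the young, 4064 in the aged and 5330 in the aged-GA library, and T-like cells 5216, 2056 and 3320. Levels are given as CPM, the UMIs of a gene in 1000000 UMIs of the same class, which with a 3′ kit do not scale with gene length, and only classes with at least 50 cells in each library of a comparison were compared. The young library held 2 classical monocyte-like and 13 neutrophil-like cells, so these classes were compared only between the aged and aged-GA libraries. Transcripts of red cells and myeloid cells were higher in aged lymphocytes, and whether they came from lysed cells or from doublets was not tested. In B-like cells the haemoglobin gene Hbb-bs stood at 1693 CPM in the young, 19227 in the aged and 9015 in the aged-GA library, and the monocyte gene Lyz2 at 1.74, 131 and 36.2 CPM. Set against each source's own ISG level, these amounts could supply at most 1.80% (red cell-like) and 1.81% (classical monocyte-like) of the summed ISG level of aged B-like cells, and 0.962% and 1.11% of that of aged T-like cells. In CPM these ceilings were 47.6 and 47.7 in aged B-like cells and 31.3 and 35.9 in aged T-like cells. In the young library the red cell-like ceilings were 5.27 CPM (B-like) and 2.95 CPM (T-like). Their part in the differences between libraries was not tested. UMIs of near-identical neighbours (Ifit3 and Ifit3b, Oas1a and Oas1g, Phf11b and Phf11d, and members of the PYHIN and Gbp clusters) may be split between copies, and their single values are uncertain.

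In the aged library, ISG transcripts were most abundant in classical monocyte-like cells. Summed over the 49 genes, classical monocyte-like cells held 9430 CPM (9352 to 9508), CD4 memory T-like cells 6011, neutrophil-like cells 5386, nonclassical monocyte-like cells 3559, T-like cells as a whole 3251, B-like cells 2639, natural killer (NK)-like cells 1539 and red cell-like cells 1204 CPM. Neighbours in this order had intervals that did not overlap. Without Ifi27l2a, the gene with the most ISG UMIs, the levels in the same order were 4213, 2545, 2724, 1751, 1899, 1750, 1434 and 1172 CPM. On that scale nonclassical monocyte-like cells lay below T-like cells and at the level of B-like cells. Of the 49 genes, 24 had their highest level in monocyte-like cells, 13 in neutrophil-like, 6 in T-like, 3 in red cell-like, 2 in B-like and 1 in NK-like cells, and for 40 of them the interval of the ratio to the next class lay above 0.

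**Figure D1:**
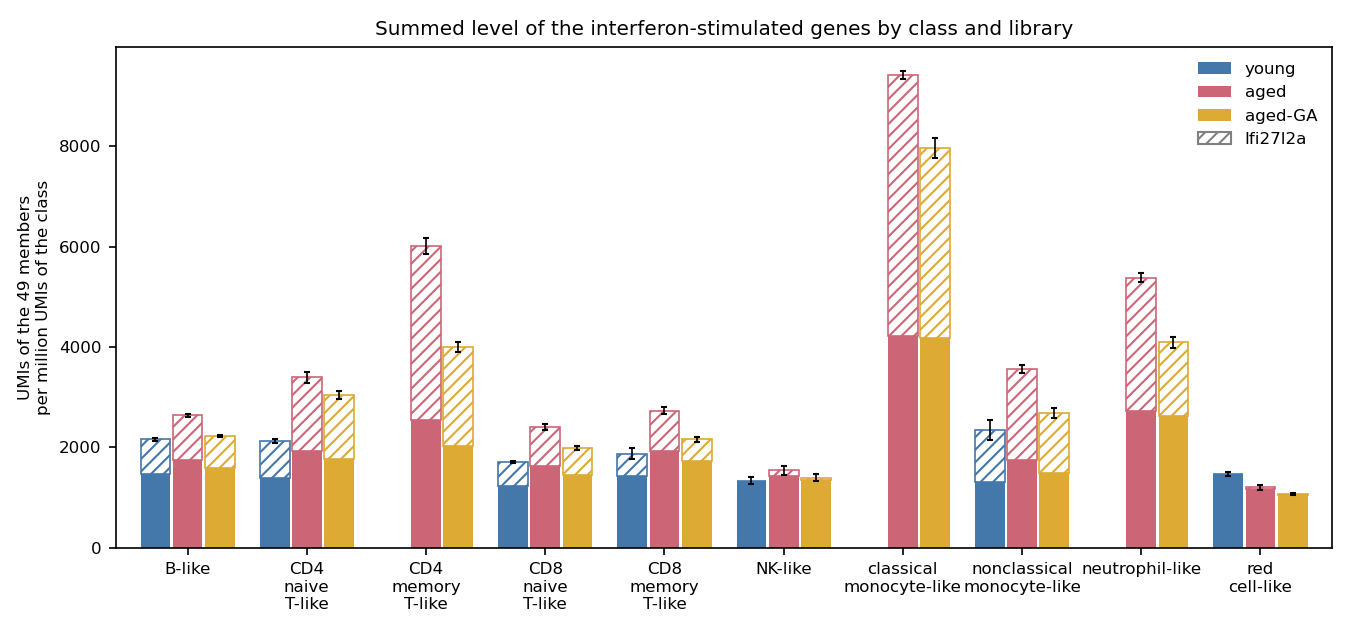
Summed level of the 49 ISGs in CPM of the class (vertical axis, linear from 0) for each marker-gated class in the young, aged and aged-GA libraries (colours), with the hatched part of a bar for Ifi27l2a and 95% Poisson intervals of the whole bar that cover counting error only; classes under 50 cells are left blank. Among classes with all 3 libraries the aged bar is the highest in B-like, naive and memory T-like, NK-like and nonclassical monocyte-like cells, and the young bar in red cell-like cells.

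Different ISGs marked different cells. The PYHIN gene Ifi204 stood at 291 CPM in aged and 273 in aged-GA classical monocyte-like cells and at 2.64 and 1.32 CPM in the T-like cells of the same libraries. Its neighbour Ifi211 was at 163 and 184 CPM in classical monocyte-like cells and at 1.26 CPM in aged B-like cells. Further PYHIN genes were also high in lymphocytes. Ifi203 stood at 385, 367 and 360 CPM in young, aged and aged-GA B-like cells. It was at 21.5, 61.8 and 39.9 CPM in nonclassical monocyte-like cells. In aged and aged-GA classical monocyte-like cells Ifi203 reached 311 and 290 CPM. Ifi213 was at 64.4, 62.1 and 51.0 CPM in T-like cells. Aged and aged-GA classical monocyte-like cells held 69.4 and 58.8 CPM of Ifi213. As CPM, neutrophil-like cells had the highest Oasl2 (200 CPM aged, 201 aged-GA), Rtp4 (201 and 157), Oas3 (152 and 131) and Trim30a (271 and 264), which restrains Toll-like receptor signalling. Aged classical monocyte-like cells were deeper (median 9574 against 2239 UMIs) and held more UMIs of each per cell. The means were 1.17 against 0.571 for Oasl2, 1.18 against 0.574 for Rtp4, 0.725 against 0.434 for Oas3 and 1.94 against 0.774 for Trim30a. Bst2, which codes for the tetherin that holds budding virus at the membrane, was at 357 and 350 CPM in classical monocyte-like cells and at 37.4 and 21.3 CPM in neutrophil-like cells. Iigp1 and Igtp, immunity-related GTPase genes, stood higher in T-like than in B-like cells: Iigp1 was at 5.17, 20.3 and 14.6 CPM in young, aged and aged-GA T-like cells and at 0, 0.559 and 1.31 CPM in B-like cells, and Igtp at 41.4, 58.2 and 45.3 CPM against 4.88, 11.2 and 10.3 CPM. Irgm1, of the same family, was at 58.8 and 64.1 CPM in aged and aged-GA classical monocyte-like cells and at 20.5 and 17.1 CPM in the T-like cells of these libraries. The values show ISGs with myeloid, B-like and T-like peaks within the same library, so the summed level is an addition of unlike patterns.

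**Figure D2:**
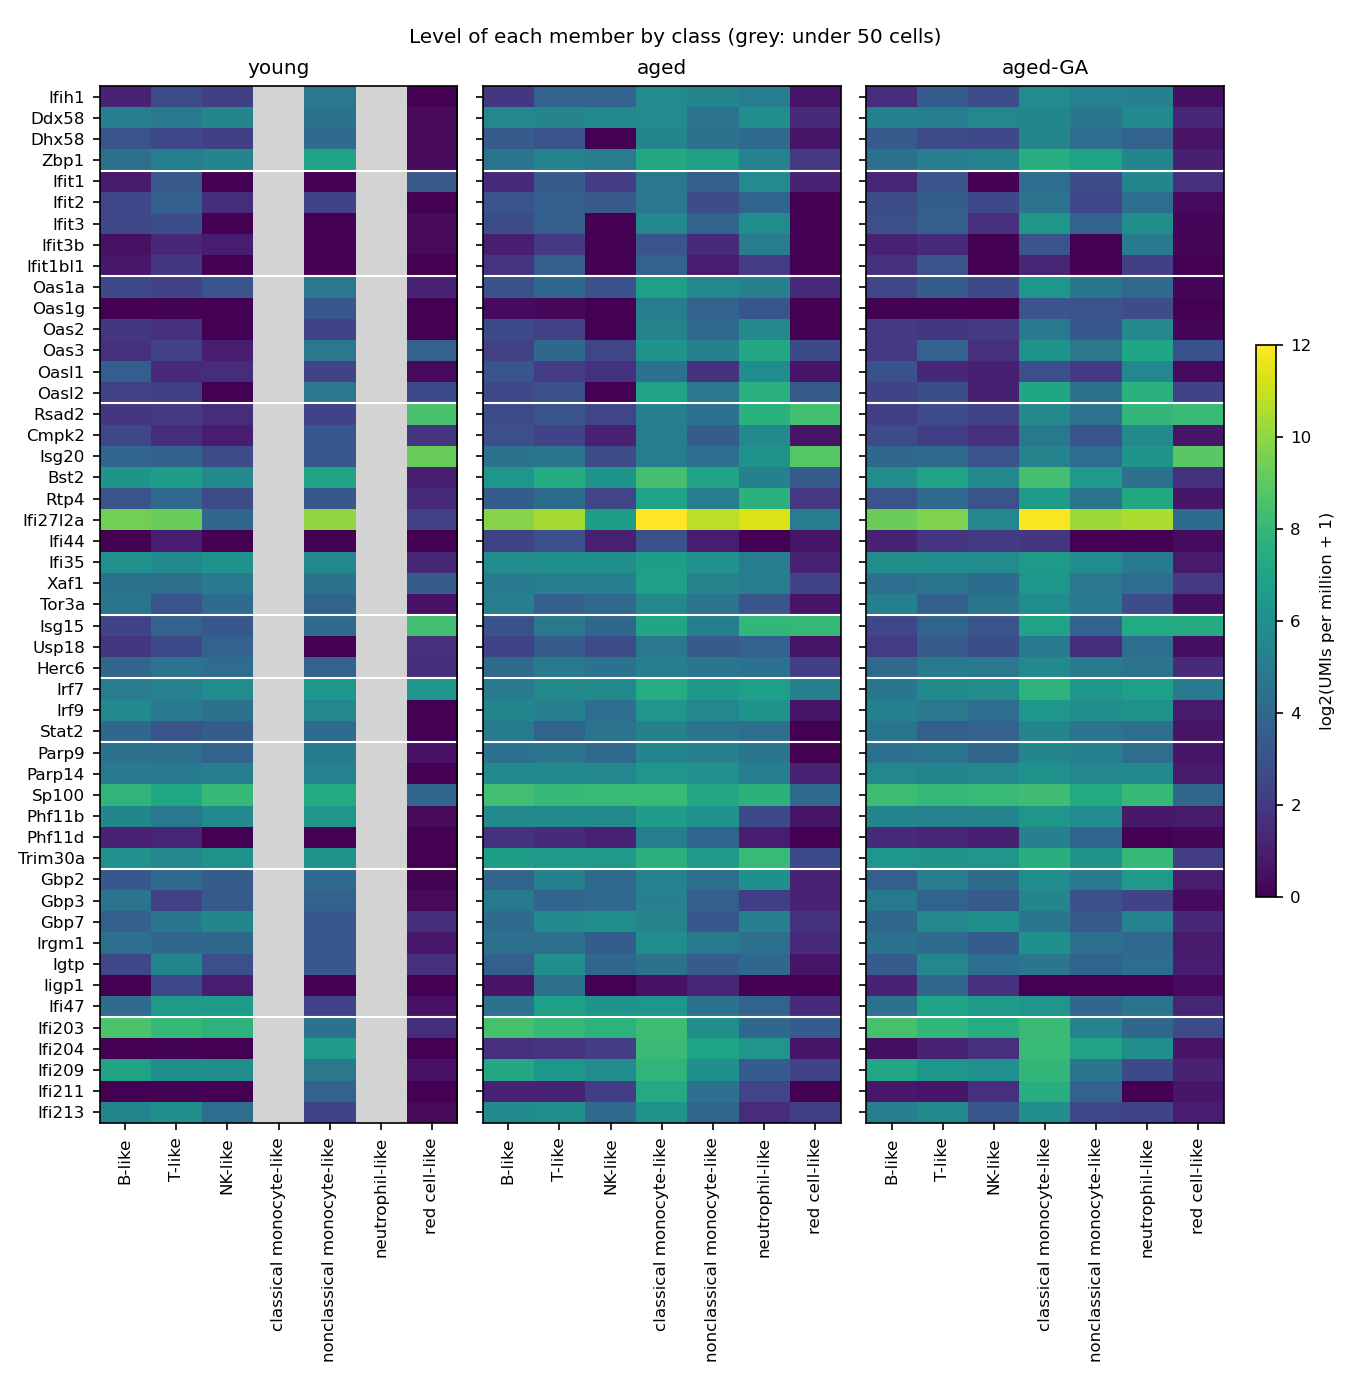
Level of each ISG (rows, white lines between role groups) in each marker-gated class (columns) of the 3 libraries (panels), as a colour on the scale log2(CPM + 1), with grey for classes under 50 cells. Ifi27l2a is bright in all columns but NK-like and red cell-like ones, Ifi204 and Ifi211 are bright in monocyte-like columns, Iigp1 is seen in T-like columns, and Isg20, Rsad2 and Isg15 are bright in red cell-like columns.

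A single gene held a large part of all ISG transcripts. Ifi27l2a (chr12:103433873-103443680, RefSeq, GRCm38.p6, as for the genes placed below), a gene for a small interferon-inducible protein, made up 29.3% of the ISG UMIs of all kept young cells, 45.4% of the aged and 32.0% of the aged-GA cells. It stood at 640, 1352 and 820 CPM in young, aged and aged-GA T-like cells and at 696, 889 and 641 CPM in B-like cells. In nonclassical monocyte-like cells it was at 1030, 1808 and 1201 CPM, and in classical monocyte-like cells at 5217 CPM in the aged and 3783 in the aged-GA library. NK-like cells had little of it, with 14.4, 105 and 48.3 CPM. The aged library was the highest in each of these classes. With each cell thinned to 500 UMIs, an Ifi27l2a UMI was found in 24.9%, 38.0% and 27.9% of T-like cells, given here and below in the order young, aged, aged-GA (77.2%, 84.4% and 77.9% before thinning), against 0.29%, 2.37% and 1.04% of red cell-like cells and 0.977%, 3.75% and 2.80% of NK-like cells (4.23%, 18.3% and 12.4% of NK-like cells before thinning), whose median depths were 11743, 7416 and 7455 UMIs (red cell-like) and 3065, 3131.5 and 3407.5 UMIs (NK-like). Since this gene could carry the sum, the summed ratios of most classes are given below with and without it.

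Red cell-like cells had high levels of 3 ISGs, which neutrophil-like cells carried as well. Isg20, an RNA exonuclease gene (chr7:78913396-78920396), was at 598, 452 and 494 CPM in young, aged and aged-GA red cell-like cells. Rsad2, which codes for viperin (chr12:26442743-26456452), was at 381, 325 and 293 CPM, and Isg15 (chr4:156199424-156200818) at 333, 256 and 165 CPM. Haemoglobin transcripts took 92.8%, 92.2% and 92.8% of the UMIs of these cells, and as CPM of the UMIs outside haemoglobin the levels were 8356, 5796 and 6851 for Isg20, 5323, 4175 and 4067 for Rsad2, and 4657, 3287 and 2292 for Isg15. As CPM of all UMIs, aged and aged-GA neutrophil-like cells held 69.3 and 72.2 of Isg20, 199 and 242 of Rsad2, and 243 and 159 of Isg15. On that scale the aged log2 ratio of red cell-like to neutrophil-like Isg15 was 0.08 (-0.11 to 0.27). An Isg20 UMI was found in 99.4%, 92.4% and 91.8% of red cell-like cells, an Rsad2 UMI in 89.9%, 75.4% and 66.7%, and an Isg15 UMI in 59.1%, 46.0% and 36.9%. These shares are without thinning, and the young cells were deeper (median 11743 UMIs, against 7416 aged and 7455 aged-GA), so they are not at equal depth. The transcription factor gene Irf7 followed with 76.9, 36.4 and 28.3 CPM, while Oas1a, Ifit3 and Gbp2 were at or under 1.82 CPM in all 3 libraries. The aged to young log2 ratios outside haemoglobin were -0.53 (-0.65 to -0.41) for Isg20, -0.35 (-0.50 to -0.21) for Rsad2 and -0.50 (-0.66 to -0.34) for Isg15. Leukocyte markers were found in more of the aged and aged-GA red cell-like barcodes: 279 of 345 barcodes held 0 of them in the young library, 75 of 211 in the aged and 285 of 961 in the aged-GA library. Among those with 0 leukocyte markers the same ratios were -0.19 (-0.37 to -0.01), -0.04 (-0.25 to 0.17) and 0.29 (0.07 to 0.50), so the direction for Isg15 turned. The aged to young ratio of Irf7 was -1.20 (-1.63 to -0.80) in all red cell-like cells and -0.56 (-1.18 to 0.01) in those with 0 leukocyte markers. From the aged to the aged-GA library, Isg15 was lower in both sets, by a log2 ratio of -0.52 (-0.68 to -0.36) in all red cell-like cells and -0.95 (-1.18 to -0.71) in those with 0 leukocyte markers. Isg20 was at 0.24 (0.13 to 0.36) and -0.07 (-0.25 to 0.12), and Rsad2 at -0.04 (-0.17 to 0.10) and -0.23 (-0.45 to -0.01). Within the 1.5-fold rule described next, 1 of 4 ISGs with enough UMIs was lower in aged than in young red cell-like cells (Irf7; 30.7% of all genes tested were lower) and 0 were higher (25% of all genes). Of 6 ISGs 2 were lower in aged-GA than in aged red cell-like cells (Isg15 and Ifi27l2a, 15% of all genes) and 0 higher (4.14%). Ifi27l2a was at 32.2 CPM in the aged and 18.1 in the aged-GA red cell-like cells. The Lyz2 of classical monocyte-like cells reached 0.343% and 0.0960% of its source level there, and the Cd3d of T-like cells 0.811% and 1.04%. How much of this Ifi27l2a came with leukocyte RNA was not tested.

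**Figure D3:**
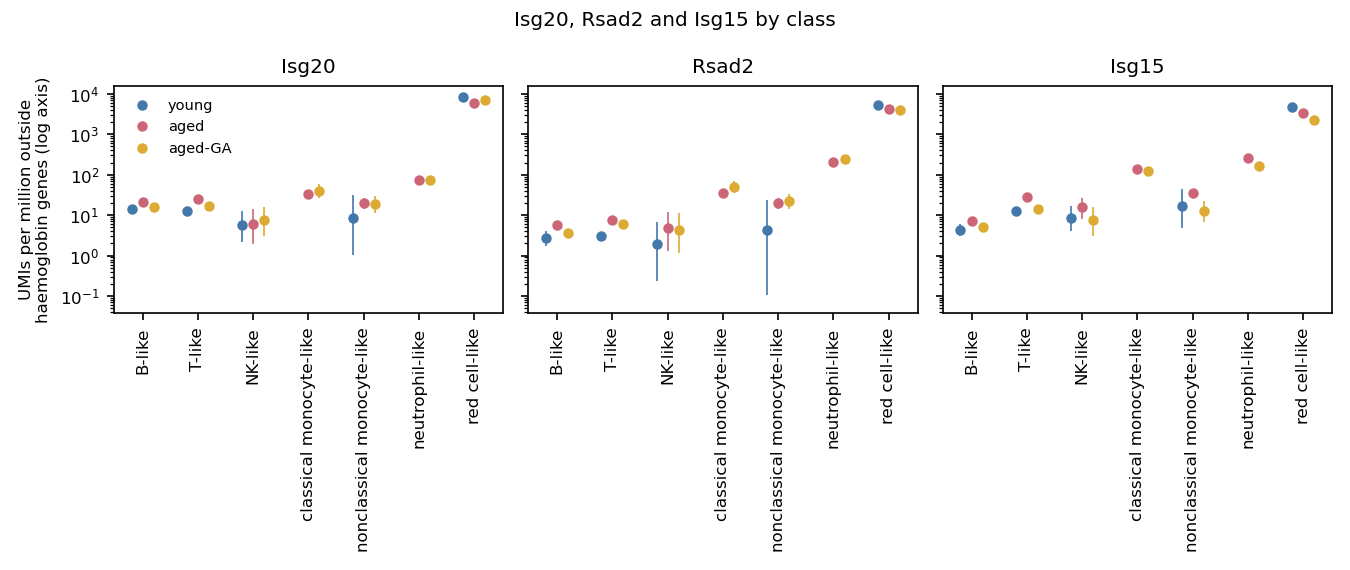
Isg20, Rsad2 and Isg15 (panels) in each marker-gated class (horizontal axis) of the young, aged and aged-GA libraries (colours), in CPM of the UMIs outside haemoglobin genes on a log axis, with 95% Poisson intervals for counting error. Red cell-like cells lie at 2292 or above for all 3 genes, and the other classes lie far lower, with neutrophil-like cells next.

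Aged T-like cells carried more ISG transcripts than young ones. Their summed level was 1961 CPM (1944 to 1977) in the young and 3251 CPM (3216 to 3286) in the aged library, a log2 ratio of 0.73 (0.71 to 0.75), or 0.52 without Ifi27l2a. For single genes, a gene with at least 100 UMIs over both libraries was counted as higher or lower past 1.5-fold, after 1 CPM was added to each level. By that rule 25 of 42 ISGs were higher in aged T-like cells, where 27.4% of all genes tested were higher, and 0 were lower, where 2.9% of all genes were. The median log2 ratio was 0.69 for the ISGs and 0.34 for all genes tested. Since the median of all genes tested lay above 0, the count was repeated relative to that median: 11 of 42 ISGs were then higher, against 9.91% of all genes. By role, these were 2 of 4 OAS genes, 4 of 7 GTPases, 2 of 9 other effectors, and 1 each of the 4 IFIT genes, the 3 of the ISG15 system and the 4 sensors, while 0 of 5 PARP and nuclear genes, 0 of 3 transcription factor genes and 0 of 3 PYHIN genes were higher on that scale. The counts by role and by promoter match that follow are not relative to the median. They cover genes with enough UMIs and stand beside the 27.4% of all genes that were higher in aged T-like cells.

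Of the OAS genes with enough UMIs, 4 of 4 were higher in aged T-like cells, with a median log2 ratio of 1.20. Relative to the median of all genes 2 of 4 were. Oas1g and Oasl1 had too few UMIs to be compared. Oas1a (chr5:120896256-120907544), whose product makes the second messenger that activates RNase L, was at 4.13 CPM in the young, 15.7 in the aged and 10.6 in the aged-GA library (log2 ratio of aged to young 1.70). Oas3 was at 4.06, 15.3 and 12.9 CPM (1.69), Oas2 at 2.19, 4.2 and 2.74 CPM (0.70) and Oasl2 at 3.73, 6.64 and 6.32 CPM (0.69). Among the GTPases, 4 of 7 were higher. Iigp1, which acts on the vacuoles of intracellular pathogens, had the largest log2 ratio of the 42 genes (1.79). Gbp3 was at 4.24, 14.1 and 13.8 CPM (1.52), Gbp2 at 17.1, 37.8 and 33.0 CPM (1.10) and Gbp7 at 25.6, 51.2 and 46.7 CPM (0.97), while Igtp (0.48), Irgm1 (0.41) and Ifi47 (0.31) stayed under the fold. Gbp2, Gbp3 and Gbp7 were close in level between the aged and aged-GA libraries.

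The IFIT family was uneven, with 2 of 4 genes past the fold. Ifit1bl1 was at 2.73, 11.1 and 7.5 CPM in T-like cells of the young, aged and aged-GA libraries (1.70), and Ifit3 at 6.35, 11.5 and 12 CPM (0.77). Ifit1 was at 9.33, 10.1 and 7.84 CPM (0.10) and Ifit2 at 11.9, 10.8 and 10.8 CPM (-0.13). Of the ISG15 system, Isg15 was at 12.6, 27.3 and 13.7 CPM (1.06), and Usp18, the protease that removes ISG15 and damps IFNAR signalling, at 5.49, 9.76 and 9.90 CPM (0.73). The ligase gene Herc6 was at 22.4, 28.7 and 28.6 CPM (0.34). Among other effectors, 7 of 9 were higher, among them Rsad2 (2.98, 7.62 and 5.83 CPM), Isg20 (12.4, 24.3 and 17.0), Bst2 (106, 165 and 127) and Xaf1 (20.9, 33.8 and 23.2), which promotes apoptosis.

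Of 5 PARP and nuclear genes in T-like cells 4 were higher, with Trim30a at 47.9, 90.4 and 74.0 CPM (0.90), Phf11b at 28.3, 52.8 and 39.0 CPM (0.88), Sp100 at 147, 262 and 253 CPM (0.83) and Parp14 at 30.9, 50.8 and 41.1 CPM (0.70). Of the sensors, 1 of 4 was higher: Ifih1, at 5.92, 12.7 and 10.4 CPM (0.98), while Ddx58 was at 28.0, 39.7 and 35.2 CPM (0.49). The 3 transcription factor genes differed little, Stat2 apart (7.54, 13.5 and 11.4 CPM; 0.76): Irf7 had a log2 ratio of 0.30 and Irf9 of 0.23. None of the 3 tested PYHIN genes passed the fold, and Ifi203 was at 263 CPM in both the young and the aged library. ISGs with an ISRE-like match in their promoter window were higher in 14 of 20 cases (median 0.89), and those with a window and no match in 5 of 12 (median 0.40), while those without a listed window were higher in 6 of 10 (0.64). The aged-GA to aged medians of these 3 sets were -0.27, -0.07 and -0.29, and the difference between sets was not tested. Ifi203, with its ISRE-like match printed above, is among the genes with a match and no difference.

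**Figure D4:**
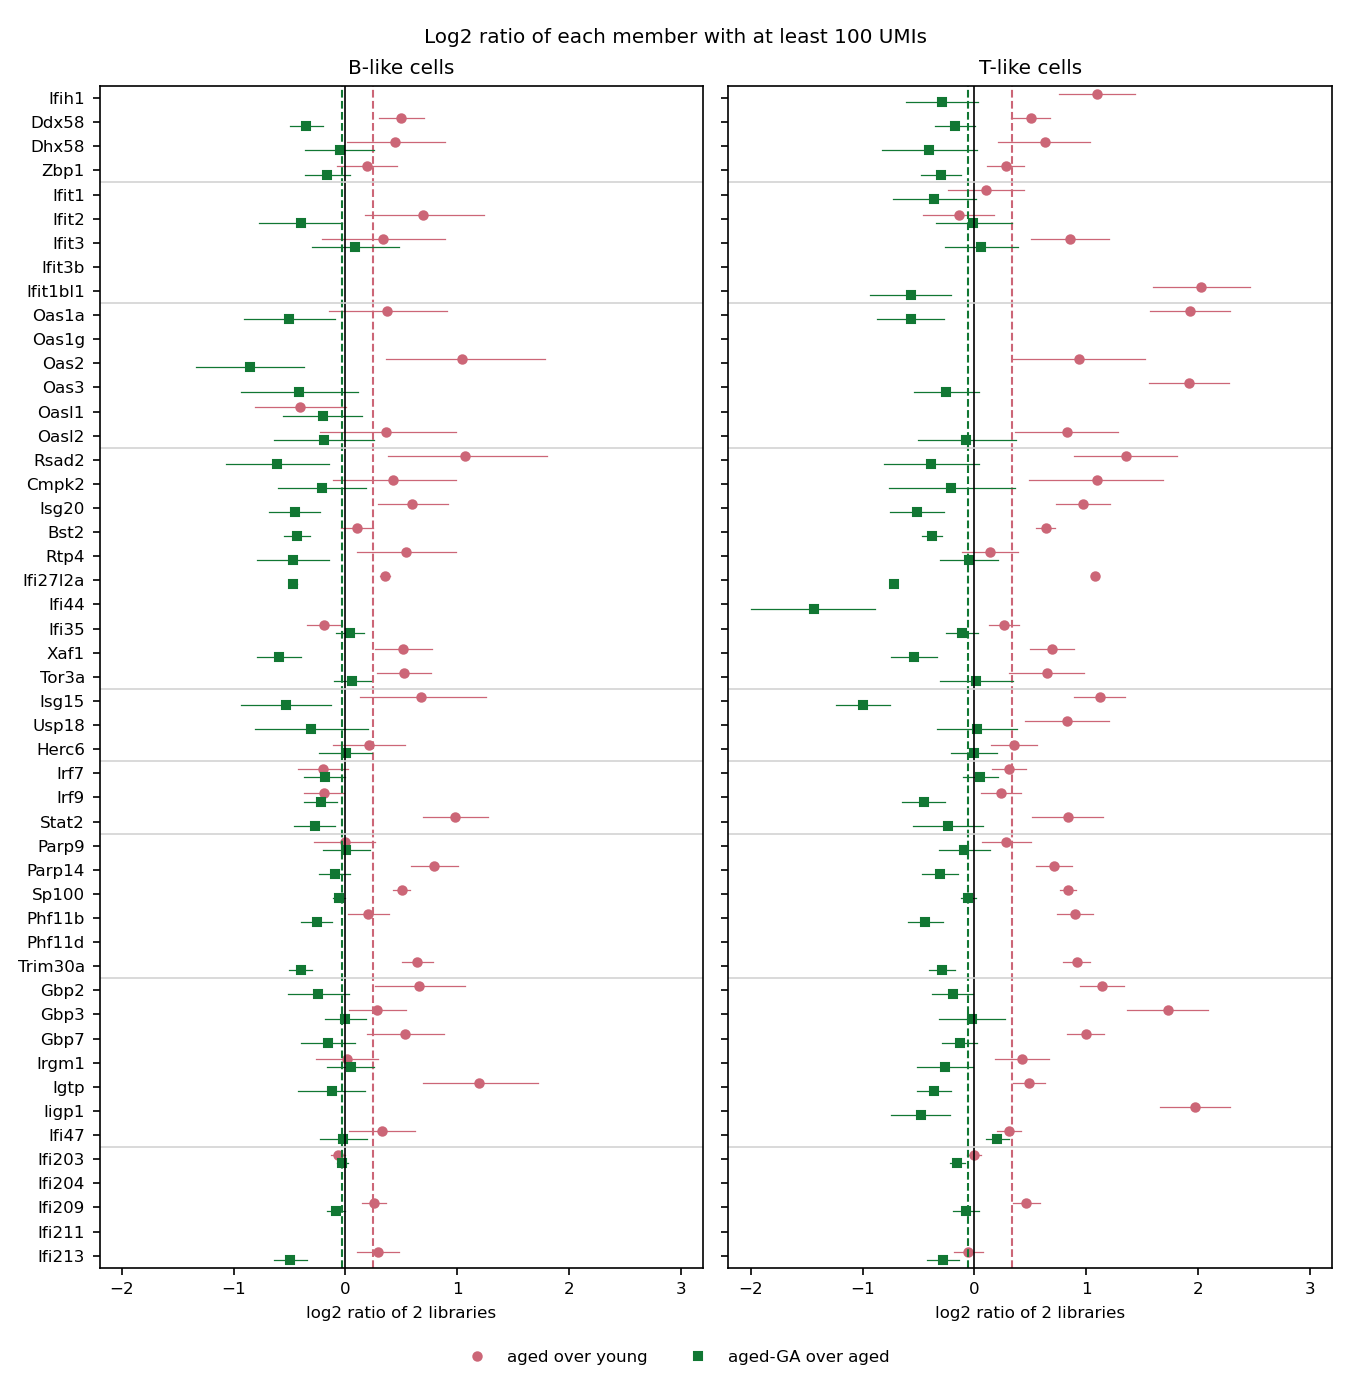
Log2 ratio of each ISG with at least 100 UMIs (rows) in B-like cells (left panel) and T-like cells (right panel), for aged over young (circles) and aged-GA over aged (squares), computed from CPM without a pseudocount and with 95% binomial intervals for counting error; dashed lines mark the median of all genes tested. In T-like cells most circles lie right of the dashed line and most squares lie left of 0 by less, and both comparisons share the aged library.

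The T-like difference between young and aged libraries was seen in each T-cell subset that could be compared. These subsets do not cover all T-like cells. Cells with both or neither of the CD4 and CD8 markers (2214 of 5216 young, 663 of 2056 aged) were in no subset. Cells with as many naive as memory markers were left out as well. CD4 naive T-like cells (950 young, 264 aged) held 2122 and 3394 summed CPM, CD8 naive cells (1815 and 385) 1704 and 2405, and CD8 memory cells (90 and 368) 1868 and 2731, with log2 ratios of 0.68 (0.62 to 0.73), 0.50 (0.45 to 0.54) and 0.55 (0.45 to 0.64). Without Ifi27l2a these ratios were 0.48, 0.40 and 0.44. Higher past the 1.5-fold rule were 10 of 23 ISGs in CD4 naive cells (17.7% of all genes), 7 of 27 in CD8 naive cells (15.8%) and 4 of 12 in CD8 memory cells (21.9%), and 0 were lower in each, where 3.81%, 3.13% and 3.18% of all genes were. Ifi27l2a and Trim30a passed it in all 3 subsets, and Isg20 in the naive subsets (log2 ratios 1.15 and 1.02). CD4 memory T-like cells made up 219 aged but 37 young cells, so the makeup of T-like cells differed as well. With CD4 naive and CD8 naive cells alone the summed log2 ratio was 0.58, and 12 of 35 ISGs were higher past the fold (17.2% of all genes).

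B-like cells differed less between young and aged libraries. The summed level was 2158 CPM (2127 to 2189) in the young and 2639 CPM (2612 to 2665) in the aged library, a log2 ratio of 0.29 (0.26 to 0.32), or 0.26 without Ifi27l2a. Of 37 ISGs with enough UMIs 8 were higher (20.7% of all genes were higher) and 0 lower (2.53% of all genes), and the medians were 0.35 for the ISGs and 0.25 for all genes. Relative to the median of all genes 3 ISGs were higher, where 8.01% of all genes were higher. On that scale 1 ISG was lower. The share of all genes that were lower on that scale is not given here, so this count cannot be set against it. The 8 were Igtp (4.88, 11.2 and 10.3 CPM in young, aged and aged-GA; 1.05), Stat2 (15.1, 29.8 and 24.7; 0.94), Rsad2 (2.67, 5.59 and 3.67; 0.84), Oas2 (2.67, 5.52 and 3.06; 0.83), Parp14 (28.9, 50.3 and 47.0; 0.78), Trim30a (65.6, 103 and 77.8; 0.64), Gbp2 (8.48, 13.4 and 11.4; 0.60) and Ifit2 (4.88, 7.90 and 5.98; 0.60). Irf9 stood at 50.5, 44.3 and 38.0 CPM and Irf7 at 33.0, 28.7 and 25.2 CPM, with log2 ratios of -0.19 and -0.20. The share of called ISGs in B-like cells was thus close to that of all genes, and in T-like cells above it; whether the 2 classes differ was not tested.

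Haemoglobin transcripts and the 3 red-cell ISGs were both higher in aged than in young B-like and T-like cells. Whether red-cell RNA supplied these ISG transcripts was not tested. If the haemoglobin UMIs of aged B-like cells came with the other transcripts of red cell-like cells, red-cell RNA could supply up to 12.9 CPM of Rsad2, 17.9 CPM of Isg20 and 10.1 CPM of Isg15, against measured levels of 5.59, 21.1 and 7.06 CPM. For young B-like cells these ceilings were 1.37 of 2.67, 2.15 of 13.9 and 1.20 of 4.41 CPM. In B-like cells with at most 1% haemoglobin UMIs (1182 aged and 4 young cells left out), Rsad2 was at 2.68, 3.14 and 2.87 CPM in young, aged and aged-GA cells, so the Rsad2 difference in B-like cells was no longer past the fold. Isg15 was at 4.43, 6.38 and 4.64 CPM in these B-like cells, and Isg20 at 13.8, 17.9 and 14.1 CPM. In aged T-like cells the ceilings were 8.45 CPM for Rsad2 (measured 7.62), 11.7 for Isg20 (24.3) and 6.65 for Isg15 (27.3). In T-like cells with at most 1% haemoglobin UMIs Isg15 was at 12.6, 27.4 and 13.8 CPM, Isg20 at 12.3, 22.0 and 16.3 CPM and Rsad2 at 2.95, 6.15 and 5.76 CPM. The Isg15 difference between T-like cells was as large without the haemoglobin-rich cells. Immediate-early and heat-shock genes, a sign of handling stress, also moved: 5 of 7 were lower in aged than in young B-like cells (2.53% of all genes; median log2 ratio -1.01) and 1 of 7 in T-like cells (2.9%; -0.32). From the aged to the aged-GA library 2 of 6 were higher in B-like cells (0.712% of all genes; median 0.55) and 0 of 7 in T-like cells (median 0.02). The median share of mitochondrial UMIs was 5.58%, 3.54% and 4.82% in B-like and 5.03%, 2.94% and 4.2% in T-like cells. The part of either in the ISG values was not tested.

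NK-like and monocyte-like cells were compared on fewer genes. NK-like cells (307 young, 240 aged) held 1333 and 1539 summed CPM, a log2 ratio of 0.21 (0.10 to 0.32), and 1 of 9 ISGs was higher (8.46% of all genes), Ifi27l2a, and 0 were lower (5.84%). Without Ifi27l2a the summed NK-like ratio was 0.12 (0.01 to 0.23). The Cd3d of T-like cells reached 1.43% of its source level in young and 2.40% in aged NK-like cells. In aged NK-like cells the Lyz2 of classical monocyte-like cells reached 0.496% of its source level. The part of RNA from other cells in the NK-like Ifi27l2a values was not tested. Nonclassical monocyte-like cells (52 young, 450 aged) held 2344 and 3559 CPM, a log2 ratio of 0.60 (0.48 to 0.73), or 0.41 without Ifi27l2a. Of 15 ISGs 6 were higher there (13.7% of all genes): Ifi203 (21.5, 61.8 and 39.9 CPM in young, aged and aged-GA), Ifi209 (25.8, 63.6 and 25.3), Oas1a (25.8, 46.7 and 24.3), Ifi27l2a, Parp14 (38.8, 65.8 and 46.7) and Ifih1 (25.8, 43.6 and 38.9). None of the 15 was lower, where 6.55% of all genes were. The counting intervals of the log2 ratio included 0 for Oas1a (-0.32 to 2.33), Parp14 (-0.20 to 1.92) and Ifih1 (-0.42 to 2.23), and lay above 0 for Ifi203 (0.26 to 3.17), Ifi209 (0.14 to 2.77) and Ifi27l2a (0.62 to 1.01). Of the 450 aged cells, 43 held at least 3 of the 14 IFIT, OAS and ISG15-system genes and with them 64.5% of the UMIs of these genes, at a median depth of 8718 UMIs against 3885 in the class. Monocyte-like cells as a whole had a log2 ratio of 1.51 (1.40 to 1.62), or 1.19 without Ifi27l2a. Both ratios set 54 young cells, 52 of them nonclassical, against 1084 aged cells, 611 of them classical. On that mixture 40 of 45 ISGs were higher (22.9% of all genes) and 0 lower (18%), and for some of the 40, such as Ifit2 (-0.08 to 7.72), the counting interval of the log2 ratio included 0. The young arm of these monocyte values rests on few cells.

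In all kept cells together, the summed level was 1947 CPM in the young and 3962 CPM in the aged library, and 35 of 49 ISGs were higher (32.3% of all genes) and 0 lower (5.89%). The log2 ratio of the summed levels was 1.03, or 0.65 without Ifi27l2a. Both the makeup of the sample and the level within a class enter this ratio. Over B-like, T-like, NK-like, monocyte-like, neutrophil-like and red cell-like cells, the aged levels at the young UMI shares of the classes gave 2914 CPM, against 1943 CPM for the young library and 4041 CPM for the aged levels at their own shares. These 6 classes held 86.6%, 71.5% and 70.0% of the ISG UMIs of the young, aged and aged-GA libraries.

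The library of glycyrrhizic acid-treated aged mice had lower summed ISG levels than the aged library in T-like and B-like cells. T-like cells were at 3251 CPM in the aged and 2483 CPM (2461 to 2505) in the aged-GA library, a log2 ratio of -0.39 (-0.41 to -0.37), or -0.19 without Ifi27l2a. B-like cells were at 2639 and 2222 CPM (2203 to 2242), a log2 ratio of -0.25 (-0.27 to -0.23), or -0.15 without Ifi27l2a. These comparisons share the aged library with the aged to young comparisons, so each aged value enters both. Few single genes passed the fold. In T-like cells 3 of 42 ISGs were lower (1.8% of all genes): Ifi44 (6.64 to 2.45 CPM; log2 ratio -1.15), Isg15 (27.3 to 13.7; -0.94) and Ifi27l2a (1352 to 820; -0.72). In B-like cells 1 of 39 was lower (0.932% of all genes), Oas2 (5.52 to 3.06 CPM; -0.69). None was higher in either class, where 0.777% (T-like) and 0.712% (B-like) of all genes were. The median log2 ratios were -0.24 for the ISGs and -0.06 for all genes in T-like cells, and -0.18 and -0.03 in B-like cells. Ifit3 (0.05), Usp18 (0.02), Gbp3 (-0.02), Herc6 (0.00) and Sp100 (-0.05) stood at nearly the same level in aged and aged-GA T-like cells, while Oas1a (-0.53), Xaf1 (-0.52), Ifit1bl1 (-0.51) and Iigp1 (-0.45) were lower by less than the fold.

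Among T-cell subsets, CD4 memory cells (219 aged, 332 aged-GA) had the lowest ratio, with 6011 and 4003 summed CPM (log2 ratio -0.59, -0.64 to -0.54; -0.33 without Ifi27l2a). There 6 of 17 ISGs were lower (2.64% of all genes): Xaf1 (58.8 to 31.1 CPM), Igtp (78.7 to 44.5), Ifi27l2a (3466 to 1984), Phf11b (118 to 67.7), Parp14 (88.1 to 54.9) and Irf9 (57.7 to 36.6). None was higher (2.12%). CD8 naive cells had a log2 ratio of -0.28 (-0.33 to -0.23) and 3 of 26 ISGs lower (1.47% of all genes), namely Isg15, Xaf1 and Iigp1, with 0 higher (1.63%). In CD8 memory cells (-0.34, -0.39 to -0.29) 2 of 25 were lower (4.12%), Isg15 and Ifi27l2a, and 1 was higher (1.47%), Oas3. CD4 naive cells had the smallest difference (-0.16, -0.22 to -0.10) and 0 of 18 ISGs lower (2.09%) or higher (1.76%). Without Ifi27l2a the log2 ratios were -0.17 in CD8 naive, -0.16 in CD8 memory and -0.14 in CD4 naive cells. Isg15 was thus lower past the fold in both CD8 subsets, and it had too few UMIs to be compared in the CD4 subsets.

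In classical monocyte-like and neutrophil-like cells the lower sum of the aged-GA library came with Ifi27l2a. Classical monocyte-like cells (611 aged, 82 aged-GA) held 9430 and 7970 CPM, a log2 ratio of -0.24 (-0.28 to -0.20), which was -0.01 without Ifi27l2a. Neutrophil-like cells (758 and 445) held 5386 and 4094 CPM, a log2 ratio of -0.40 (-0.44 to -0.35), which was -0.05 without Ifi27l2a. In classical monocyte-like cells 3 of 45 ISGs were lower (5.31% of all genes), namely Oas1g (32.6 to 8.02 CPM), Oasl1 (21.0 to 6.68) and Gbp7 (40.1 to 25.4; log2 ratio -0.64, -1.42 to 0.01), and 1 was higher (5.01%), Ifit3 (46.9 to 80.2). In neutrophil-like cells 4 of 27 were lower (1.46%): Isg15 (243 to 159 CPM), Oas1a (36.5 to 16.0), Bst2 (37.4 to 21.3) and Ifi27l2a (2662 to 1467), with 0 higher (5.14%). Nonclassical monocyte-like cells had a log2 ratio of -0.41 (-0.47 to -0.34; -0.24 without Ifi27l2a) with 5 of 18 lower (2.58%), namely Ifi209, Oas1a, Xaf1, Ifi203 and Ifi27l2a, and 0 higher (2.38%). NK-like cells were at 1539 and 1396 CPM (-0.14, -0.25 to -0.03), with 1 of 9 ISGs lower (1.64%), Ifi27l2a, and 0 higher (2.25%). Without Ifi27l2a the summed NK-like ratio was -0.09, with an interval that included 0 (-0.20 to 0.02). The Cd3d of T-like cells reached 2.40% of its source level in aged and 2.09% in aged-GA NK-like cells, and classical monocyte-like Lyz2 0.496% and 0.133%. The part of such RNA in NK-like Ifi27l2a was not tested. Monocyte-like cells as a whole had a log2 ratio of -0.67 (-0.70 to -0.64), or -0.44 without Ifi27l2a, with 611 of 1084 cells classical in the aged and 82 of 279 in the aged-GA library, and with 18 of 45 ISGs lower (5.19%) and 0 higher (8.08%). In all kept cells, 25 of 49 ISGs were lower in the aged-GA library (10.9% of all genes) and 0 higher (1.11%), and the aged-GA levels at the aged UMI shares of the 6 classes gave 2940 CPM against 4041 CPM for the aged library. The aged levels at the aged-GA shares gave 2893 CPM, and the aged-GA levels at their own shares 2284 CPM.

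Few lymphocytes held several IFIT, OAS and ISG15-system genes at once, which are a part of the ISG list. With cells thinned to 2000 UMIs, at least 2 of the 14 IFIT, OAS and ISG15-system genes were found in 1.89% (1.54 to 2.30), 4.52% (3.66 to 5.52) and 3.55% (2.95 to 4.24) of T-like cells. The shares before thinning were 6.69%, 14% and 14.1%, so the order of the aged and aged-GA libraries is not the same on both scales. In B-like cells the thinned shares were 1.22%, 1.83% and 1.36% (2.62%, 3.74% and 3.43% before thinning). In NK-like cells they were 0.683%, 0.469% and 0.427%, which rest on 2, 1 and 1 cells (1.63%, 2.92% and 2.40% before thinning). Classical monocyte-like cells had 28.0% in the aged and 25.0% in the aged-GA library, and neutrophil-like cells 33.9% and 29.6%, with 277 of 758 and 144 of 445 neutrophil-like cells left out as too shallow. Without thinning, at least 4 of the 14 genes were held by 44 of 5216, 53 of 2056 and 74 of 3320 T-like cells.

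**Figure D5:**
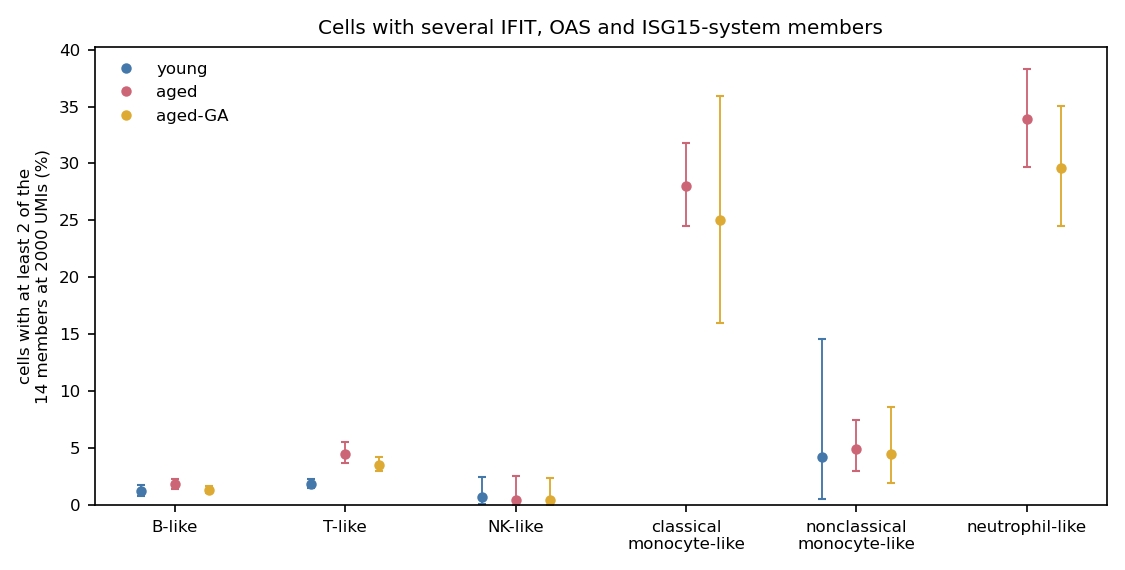
Share of cells (vertical axis, percent, linear from 0) in each class and library with UMIs of at least 2 of the 14 IFIT, OAS and ISG15-system genes after thinning to 2000 UMIs, with 95% binomial intervals for counting error. Neutrophil-like and classical monocyte-like cells lie between 25.0% and 33.9%, B-like, T-like and NK-like cells at or below 4.52%, and nonclassical monocyte-like cells between 4.26% and 4.90%.

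The other genes of the pathway were read from a list of 46 ligands, receptors, signal carriers and inhibitors. Of 19 ligand genes, Ifng alone had enough UMIs in a lymphocyte class: in T-like cells it stood at 3.37 CPM in the young, 28.2 in the aged and 25.4 in the aged-GA library, log2 ratios of 2.74 and -0.14. In CD8 memory T-like cells, which made up 90 of 5216 young and 368 of 2056 aged T-like cells, Ifng was at 32.6, 54.7 and 44.0 CPM, an aged to young log2 ratio of 0.73. CD4 memory T-like cells held 59.8 CPM of Ifng in the aged and 87.2 in the aged-GA library, a log2 ratio of 0.54 (0.09 to 1.01). NK-like cells held more Ifng, with 128, 171 and 186 CPM in the young, aged and aged-GA libraries. Ifnb1 had 0 UMIs in all 3 libraries and Ifna2 had 1 UMI, in the aged library. In T-like cells 10 of 23 pathway genes were higher in the aged library and 1 was lower, beside the 27.4% and 2.9% of all genes, and relative to the median of all genes 5 were higher. The higher genes included the kinase genes Tyk2 (1.15) and Jak2 (0.73), the receptor gene Ifnar2 (0.63) and Tmem173 (0.60), which codes for STING. The lower gene was Ifngr2, a chain of the interferon-gamma receptor, at 121, 41.7 and 36.5 CPM (-1.51). In B-like cells 3 of 23 were higher (Irf3, Tyk2 and Traf3) and 3 lower (Irf1 and the feedback inhibitors Socs1 and Socs3), beside 20.7% and 2.53% of all genes. From the aged to the aged-GA library 0 of 23 passed the fold in T-like cells, where 0.777% of all genes were higher and 1.8% lower, and in B-like cells 1 of 24 did, Socs3, which was higher (0.92; 0.712% of all genes).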

How the data were processed

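PBMC libraries of the young, aged and aged-GA mice (1 each) were made by the authors with a droplet 3′ kit, and the deposited files hold raw UMI counts per gene and barcode, not normalized. The matrix headers name Cell Ranger 5.0.0 and the submitters' processing notes the build mm10; the annotation is not given in the sources used here. Total counts were 58894294, 82260961 and 98155671 UMIs. Barcodes under 200 genes, above 90% of their library's highest gene number or above 7.5% mitochondrial UMIs were removed. A cell took a class where it held at least 3 distinct markers of that class (4 for plasma cells and plasmacytoid dendritic cells, 7 for red cells) and met no other class, with these exceptions. Plasma cells could also meet the B-cell limit. A cell that met both the monocyte and the neutrophil limit took the class with at least 3 more markers. These limits were set after marker counts were seen. Other cells that met several classes (574, 1533 and 1869) were left out, which served to remove mixed doublets, and no doublet caller was run. UMIs were summed per class and library. Levels have exact Poisson intervals, ratios exact binomial intervals conditional on the summed count, and shares Clopper-Pearson intervals. The fold rule used 1 CPM as pseudocount, a minimum of 100 UMIs and 1.5-fold, and ISGs were named where they passed it, led their role group or peaked in a class. The ISG list, role groups, markers and pathway list were chosen with earlier results of these data known. Alternatives changed the filters, gates, naming, denominator, pseudocount, minimum and fold. The fold rule and intervals were tested on simulated counts with known changes. Python 3.11.15, numpy 2.4.6, scipy 1.17.1 and pandas 2.3.3 were used. Promoter sequences came from RefSeq (GRCm38.p6). A gene of the pathway list is not reported here.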

Additional observations from a re-analysis of the deposited data

Results flagged for a closer look

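Barcodes left out of the report also held ISG transcripts, and none of the values here was tested between libraries. Barcodes with under 200 genes, which numbered 971 in the young, 5466 in the aged and 3852 in the aged-GA library, carried the 3 genes of red cell-like cells. Isg20 stood there at 484 CPM in the young, 268 in the aged and 313 in the aged-GA library. Rsad2 stood at 298, 160 and 143 CPM, and Isg15 at 152, 83.2 and 54.8 CPM. The aged-GA library was lowest for Isg15 here, as in the kept red cell-like cells. Barcodes with over 7.5% mitochondrial UMIs held 1936 summed CPM of the 49 ISGs in the young, 2706 in the aged and 2196 in the aged-GA library.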

How the results depend on the processing

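No direction turned under the alternatives run for the summed level of B-like, T-like or monocyte-like cells or for a called gene of B-like or T-like cells (called genes of other classes were not recomputed), and 273 of 333 values of single called genes stayed past the fold. Values are log2 ratios of the summed level, or counts of ISGs past the fold, by class. The share of all genes past the fold is not given here for each setting. These counts therefore do not show whether ISGs exceeded other genes. With 1 more marker for each class, the summed ratio of aged to young was 0.23 (B-like) and 0.68 (T-like), that of aged-GA to aged -0.62 in monocyte-like cells, and 3 B-like ISGs were lower in aged-GA. Naming each cell by its most marker UMIs gave 0.37 (B-like), 1.00 (T-like) and 1.63 (monocyte-like) for aged to young, and -0.29 (B-like) and -0.62 (T-like) for aged-GA to aged, with 2 B-like and 6 T-like ISGs lower. A denominator without haemoglobin, mitochondrial, ribosomal, immunoglobulin and T-cell receptor genes gave 0.24 and 0.53 (B-like and T-like, aged to young), -0.34 (T-like) and -0.70 (monocyte-like) for aged-GA to aged, and 2 B-like ISGs lower. Without the 3 ISGs with the most UMIs the ratios were 0.32, 0.59 and 1.20 (B-like, T-like and monocyte-like, aged to young) and -0.22, -0.23 and -0.46 (aged-GA to aged). Without the 5% of cells with the most UMIs, monocyte-like ratios were 1.63 and -0.72, and 2 B-like ISGs were lower in aged-GA; at most 20% mitochondrial UMIs also gave 2. The mean over cells gave 0.75 and -0.35 in T-like and -0.75 in monocyte-like cells (aged-GA to aged). A pseudocount of 10 CPM left 2 B-like and 14 T-like ISGs higher in the aged library and 0 B-like ISGs lower in aged-GA. A minimum of 20 UMIs gave 14 B-like ISGs higher in aged, and 3 B-like and 6 T-like lower in aged-GA, and no minimum gave 16, 3 and 6. At 2-fold the counts were 1 (B-like) and 9 (T-like) for aged to young and 0 and 1 for aged-GA to aged. Centring on the median of all genes gave 3 B-like and 11 T-like ISGs higher. The following alternatives were chosen after seeing the data. Without cells over 1% haemoglobin UMIs, B-like ratios were 0.32 and -0.28 and 5 ISGs were higher in aged. CD4 naive and CD8 naive T-like cells alone gave 0.58 and -0.29, with 12 ISGs higher. The cause of these shifts was not tested. No paired analysis was possible because each group has 1 library. Depth limits the young monocyte-like values (54 cells), and genes under 100 UMIs in a class were not compared.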

Other observations

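Small classes outside the comparisons also held ISG transcripts. Plasma cell-like cells (39 aged, 32 aged-GA, 1 young) were at 3344 summed CPM in the aged and 4678 in the aged-GA library, and Ifi27l2a made up 59.2% and 73.4% of it. Without Ifi27l2a the log2 ratio of aged-GA to aged was -0.13. Basophil-like cells (99 aged, 24 aged-GA) were at 1565 and 938 CPM, with Ifi27l2a at 48.4% and 25.0%. Plasma cell-like cells had a higher summed level in the aged-GA than in the aged library, while each class compared in the report had a lower one.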
